A study of Mus musculus with 12 samples.

Results

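The 9 genes described here encode parts of the JAK-STAT pathway and its feedback inhibitors. They are the suppressor of cytokine signaling genes Socs2, Socs3, Socs5, Socs6, Socs7 and Cish, the Janus kinase genes Jak1 and Jak2, and the transcription factor gene Stat3. They were chosen by name, as the rows of the deposited tables that carry one of these 9 symbols, out of 40473, 40478 and 40470 gene names in the tables of 2 h, 24 h and 7 d. Each symbol was found once in each table.

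The tissue was the prefrontal cortex (PFC) of C57BL/6 mice aged 10 weeks, which the study's methods give as male and of the J substrain. All mice received repeated daily intraperitoneal injections, of cocaine in the treated groups and of saline in the control groups, and the tissue was taken 2 h, 24 h or 7 d later. The 6 groups gave 12 RNA-seq libraries, 2 per group, each made from the pooled PFC of 5 animals, so that 60 animals were used and differences between single animals are averaged within a library. The comparison of cocaine with saline at each time asks what repeated cocaine leaves in the PFC transcriptome early and late in withdrawal.

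Janus kinases sit on the inner side of cytokine and growth hormone receptors. When a ligand brings the receptor chains together, the kinases phosphorylate the receptor and the STAT proteins that dock there, and the STATs move to the nucleus and start transcription. Among the genes they switch on are several SOCS genes, whose proteins bind the kinase or the receptor, block it or mark it for degradation, and so close the loop. In the brain the pathway is known for its part in gliogenesis, in the reaction of astrocytes to injury and in responses to leptin and growth hormone.

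The tables hold 1 pooled FPKM per group, a read count set per kilobase of transcript and per mapped fragment of the libraries, and no value per library. The spread between the 2 libraries of a group could therefore not be computed, the depth behind each value is unknown from the tables, and no difference below has a replicate check or a test. A difference is given as the log2 ratio of cocaine over saline after 0.1 FPKM was added to both values, which understates the change of genes of low level. Genes were kept where the mean of both groups was 1 FPKM or more (13355, 13554 and 13425 at 2 h, 24 h and 7 d). A gene was counted as past the fold at a log2 ratio of at least 0.5 in size, which is 1.41-fold. The 3 tables were normalized separately, so levels set side by side across times, and log2 ratios between times, are given as description only. The tissue is bulk, in which a change in the number of cells of a type and a change in RNA per cell cannot be told apart.

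The markers of cortical neurons were high in all 6 groups, as in the glutamate transporter gene Slc17a7 (466 to 532 FPKM) and the kinase gene Camk2a (844 to 1048 FPKM). None of the 6 neuronal markers was past the fold at any time. The markers of red blood cells moved together at 2 h. All 4 of them (Hba-a1, Hbb-bs, Hbb-bt and Alas2) were past the fold upwards in the cocaine group, where 3.11% of all kept genes were. Their summed level was 230 FPKM in saline and 356 FPKM in cocaine. At 24 h the sum was 323 and 345 FPKM, and at 7 d 331 and 383 FPKM. None of the 4 leukocyte markers reached a mean of 1 FPKM, with sums of 1.18 to 1.82 FPKM over the 6 groups. Ttr, a marker of the choroid plexus, was at 1.90 and 0.461 FPKM in saline and cocaine at 2 h, at 1.80 and 1.10 FPKM at 24 h, and at 0.284 and 6.54 FPKM at 7 d. The other choroid plexus markers, Folr1, Kl, Aqp1 and Clic6, were below the filter. Their log2 ratios were 0.05, 0.27, 0.25 and 0.32 at 2 h, where that of Ttr was -1.83. At 7 d they were -0.98, 0.41, 0.04 and -0.33, beside 4.11 for Ttr. No marker of the other lists was past the fold at 2 h, with astrocyte sums of 415 and 449 FPKM, microglia sums of 136 and 143 FPKM, oligodendrocyte sums of 670 and 630 FPKM, and endothelial sums of 86.5 and 94.0 FPKM in saline and cocaine. The part of any of these cells in the values below was not tested.

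Promoter windows of RefSeq (GRCm38.p6, 250 bases before to 50 bases after the annotated start) were matched by symbol for 5 of the 9 genes: Socs3, Cish, Jak1, Jak2 and Stat3. Socs2, Socs5, Socs6 and Socs7 had no entry. Below are the 250 bases before the start of Socs3 and of Cish, which are past the fold at 2 h, and of Jak1, the gene whose level differed least between groups, together with the first 20 bases of the Cish transcript. Each is printed 5′ to 3′ on the strand of the gene, with capitals on the motifs searched. For Socs3, Jak1 and Stat3 the start used by the promoter table lies inside the RefSeq span of the gene, so positions count from that start and not from the outermost one. For Socs3 all 250 bases printed lie inside that span, which ends at 117970336. They are therefore not upstream of the outermost start of Socs3.
Socs3, chr11:117969367-117969616, minus strand: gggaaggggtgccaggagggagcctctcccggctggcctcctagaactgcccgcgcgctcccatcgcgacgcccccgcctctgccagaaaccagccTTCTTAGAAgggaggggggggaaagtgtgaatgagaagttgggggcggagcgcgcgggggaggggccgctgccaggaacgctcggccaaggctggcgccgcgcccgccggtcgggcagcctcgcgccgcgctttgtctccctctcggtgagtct
Cish, chr9:107296409-107296658, plus strand: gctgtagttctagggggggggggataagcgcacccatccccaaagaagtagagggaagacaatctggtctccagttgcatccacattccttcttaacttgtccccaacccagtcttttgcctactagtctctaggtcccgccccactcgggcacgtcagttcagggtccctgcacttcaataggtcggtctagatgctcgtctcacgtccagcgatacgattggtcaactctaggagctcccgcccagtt
Cish, chr9:107296659-107296678, plus strand: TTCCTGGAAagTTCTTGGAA
Jak1, chr4:101265224-101265473, minus strand: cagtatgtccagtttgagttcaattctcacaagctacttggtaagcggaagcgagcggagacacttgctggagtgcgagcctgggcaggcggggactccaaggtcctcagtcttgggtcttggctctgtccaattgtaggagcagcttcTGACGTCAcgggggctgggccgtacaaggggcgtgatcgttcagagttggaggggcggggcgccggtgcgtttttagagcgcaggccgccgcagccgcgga

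The capitals in Socs3 and Cish are the letters TTCNNNGAA, the palindrome known as the gamma-activated site (GAS) to which STAT dimers bind. Socs3 held it once, as TTCTTAGAA, with its first base 154 bases before the start used (-154), inside the RefSeq span of the gene. Cish held it as TTCCTGGAA from base 1 and as TTCTTGGAA from base 12 of the transcript, with no overlap. Of 32817 promoter windows of this length over all genes, 8.29% held the letters at least once and 0.457% held them 2 times or more. Jak2 and Stat3 held none. The capitals in Jak1 are TGACGTCA, the cyclic AMP response element (CRE), from base -101, which 1.79% of all windows held. The letters of AP-1 (TGANTCA, in 7.81% of windows) and of EGR factors (GCGTGGGCG, in 0.612%) were searched on both strands too, and were in none of the 5 windows. These are matches of letters in a fixed window and not sites of binding, and missing letters say nothing of the factors.

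At 2 h after the last injection, the feedback inhibitors Socs3, Socs2 and Cish were higher in the cocaine group, with log2 ratios of 1.11, 0.62 and 0.51. Socs5, Socs6 and Socs7 lay between 0.12 and 0.34, the kinase and transcription factor genes Jak2 and Stat3 at 0.14 and 0.18, and Jak1 at -0.01. Thus 3 of the 9 genes were past the fold upwards, where 3.11% of all kept genes were, and 0 of 9 downwards, where 2.18% were. Of the 3, Socs3 and Cish had saline values below 1 FPKM at 2 h (0.612 and 0.933 FPKM). They passed the filter on the mean only through their cocaine values (1.44 and 1.37 FPKM), a way of passing that favors upward calls. The 9 genes were also chosen with earlier results of these data known, so that this count is a description. The gene just inside the fold was Cish and the gene just outside it was Socs7. The median log2 ratio of the 9 was 0.18, beside 0.02 over all kept genes, whose middle 95% ran from -0.48 to 0.56. Cocaine was higher in 8 of the 9 genes and in 56.6% of all kept genes.

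**Figure D1:**
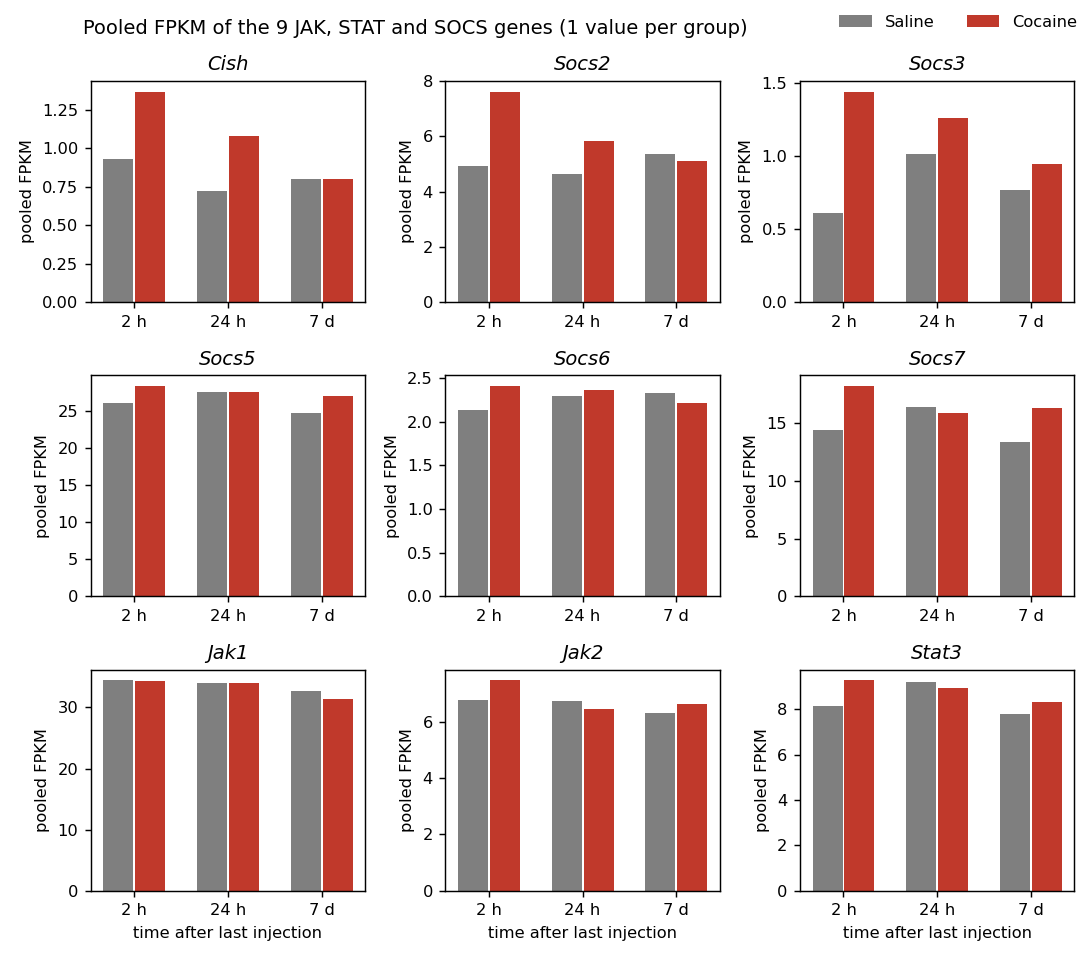
Pooled FPKM (y axis) of each of the 9 genes in the saline (grey) and cocaine (red) groups at 2 h, 24 h and 7 d after the last injection (x axis), with 1 value per group and so no error bar; the scale starts at 0 and differs between panels. Socs2 and Socs3 stand highest in the cocaine group of 2 h, at 7.63 and 1.44 FPKM, while the 6 bars of Jak1 lie between 31.3 and 34.4 FPKM.

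Socs3 (chr11:117966079-117970336), whose protein blocks JAK kinases at receptors of the interleukin-6 family, was at 0.612 FPKM in saline and 1.44 FPKM in cocaine at 2 h. At 24 h it was at 1.01 and 1.26 FPKM, and at 7 d at 0.767 and 0.946 FPKM. The cocaine group was higher at all 3 times, which held for 19% of the genes kept at all 3 times, but the saline and cocaine ranges over the 3 times overlapped. Its ratio at 2 h was 2.36 with nothing added. The log2 ratio of 1.11 at 2 h, with 0.1 FPKM added, was matched or exceeded upwards by 0.943% of kept genes. At 24 h and 7 d the log2 ratios were 0.29 and 0.27, and at 7 d its mean of 0.857 FPKM was below the filter. The saline group of 2 h was the lowest of the 6 groups for this gene, 0.64 below the saline group of 24 h on the log2 scale, so that the large ratio at 2 h joined the lowest saline value to the highest cocaine value. Genes of this level vary widely: among genes of 0.5 to 2 FPKM, 7.69% were past the fold upwards at 2 h. With 1 FPKM added in place of 0.1 the log2 ratio at 2 h was 0.60, and with nothing added it was 1.24.

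Socs2 (chr10:95383903-95417321), known as a brake on growth hormone signaling, had 4.91 FPKM in saline and 7.63 FPKM in cocaine at 2 h. The values were 4.63 and 5.85 FPKM at 24 h, and 5.35 and 5.11 FPKM at 7 d. The cocaine groups of 2 h and 24 h were the highest of the 6, and the remaining 4 groups lay within 4.63 to 5.35 FPKM. Its ratios were 1.55, 1.26 and 0.957 with nothing added, and its log2 ratios with 0.1 FPKM added were 0.62, 0.33 and -0.06. A log2 ratio as high was seen in 2.10% of kept genes at 2 h and in 3.98% at 24 h. Of the 3 genes past the fold at 2 h, Socs2 had the highest level and the least dependence on the added FPKM, with 0.55 after 1 FPKM was added and 0.63 with none. The saline and cocaine ranges over the 3 times overlapped through the 7 d groups.

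Cish (chr9:107296659-107302784), the founding SOCS gene and a known target of STAT5, had 0.933 FPKM in saline and 1.37 FPKM in cocaine at 2 h. At 24 h the pair was 0.720 and 1.08 FPKM, and at 7 d 0.800 and 0.801 FPKM. The ratio was thus alike at 2 h and 24 h, at 1.47 and 1.50 with nothing added. With 0.1 FPKM added the log2 ratios of Cish were 0.51, 0.53 and 0.00 at 2 h, 24 h and 7 d. At 24 h its mean of 0.902 FPKM was below the filter, so it was not counted there, and 6.54% of genes of 0.5 to 2 FPKM were past the fold upwards at that time. At 2 h it was past the fold by little: the log2 ratio was 0.29 with 1 FPKM added, 0.49 after centring on the median of all genes and 0.48 after the trend with transcript length was subtracted. The coordinate span listed for Cish in the tables also covers the predicted genes Gm17040 and Gm17041, which have values of their own.

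Socs7 (chr11:97362292-97398542), which binds insulin receptor substrates, was next in size. It had 14.4 and 18.2 FPKM in saline and cocaine at 2 h, 16.4 and 15.9 FPKM at 24 h, and 13.4 and 16.3 FPKM at 7 d. The log2 ratios were 0.34, -0.04 and 0.28, so that cocaine was higher at 2 h and 7 d only, and a ratio as high was seen in 6.64% and 6.95% of kept genes at these times. The saline group of 24 h was above those of 2 h and 7 d, by 0.19 and 0.29 on the log2 scale, and the cocaine groups spanned 15.9 to 18.2 FPKM. At 7 d long transcripts had higher ratios than short ones (Spearman's rho of 0.476 across 11375 genes, which share libraries and are not independent). Socs7 has the longest transcript of the 9 (7015 nt), and after this trend was subtracted its log2 ratio at 7 d was 0.16.

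Socs5 (chr17:87107278-87137647), a regulator of interleukin-4 and epidermal growth factor receptor signaling, was the most abundant SOCS gene. Its values were 26.1 and 28.4 FPKM at 2 h, 27.5 and 27.6 FPKM at 24 h, and 24.7 and 27.0 FPKM at 7 d. Cocaine was higher at all 3 times, by 0.12, 0.00 and 0.13 on the log2 scale, and 27.8% of kept genes had a ratio as high at 2 h. Socs6, on chromosome 18, a gene whose protein like that of Socs7 takes part in insulin signaling, had 2.14 and 2.41 FPKM at 2 h, 2.29 and 2.36 FPKM at 24 h, and 2.33 and 2.21 FPKM at 7 d. Its log2 ratios of 0.17, 0.05 and -0.07 were all within the middle 95% of genes.

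The kinase and transcription factor genes differed little between saline and cocaine. Jak1 (chr4:101151974-101265282), the kinase shared by interferon and interleukin-6 family receptors, had 34.4 and 34.2 FPKM at 2 h, 33.9 and 33.9 FPKM at 24 h, and 32.7 and 31.3 FPKM at 7 d. Its highest group was 1.10 times its lowest, and it was the one gene of the 9 that was higher in cocaine at no time. The software of the authors marked its fit at 2 h as failed, and the span listed for it also covers Raver2 and 3 predicted genes. Jak2 (chr19:29251803-29313095), the kinase of growth hormone, prolactin, leptin and erythropoietin receptors, had 6.77 and 7.46 FPKM at 2 h, 6.75 and 6.46 FPKM at 24 h, and 6.30 and 6.64 FPKM at 7 d. Stat3 (chr11:100886806-100939594), the main factor downstream of interleukin-6 family receptors, had 8.14 and 9.27 FPKM at 2 h, 9.18 and 8.94 FPKM at 24 h, and 7.78 and 8.32 FPKM at 7 d. Both had the order of a slightly higher cocaine value at 2 h and 7 d (log2 of 0.14 and 0.07 for Jak2, 0.18 and 0.09 for Stat3) and a slightly lower one at 24 h (-0.06 and -0.04). The span listed for Stat3 also covers its neighbor Stat5a, which has values of its own.

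**Figure D2:**
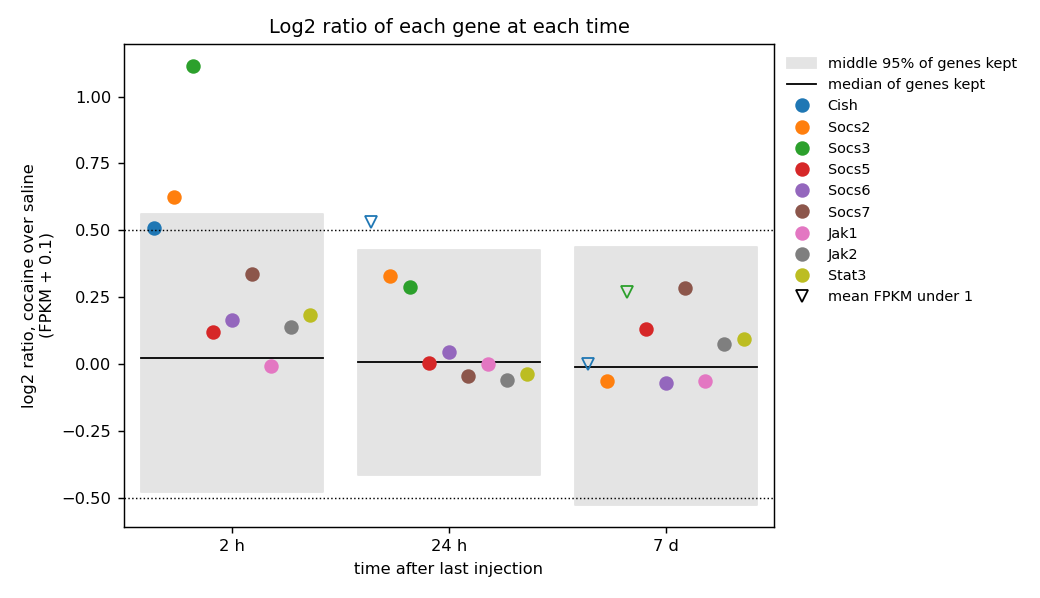
Log2 ratio of cocaine over saline (y axis, 0.1 FPKM added) for each of the 9 genes at 2 h, 24 h and 7 d (x axis); filled points have a mean FPKM of at least 1, open triangles do not. The grey band is the middle 95% of all kept genes, the line their median, and the dotted lines mark 0.5 and -0.5. Socs3 and Socs2 lie above the band at 2 h, and no filled point passes 0.5 at 24 h or 7 d.

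By level in FPKM, which is scaled to length, the order from high to low was Jak1, Socs5, Socs7, Stat3, Jak2, Socs2 and Socs6 in 5 of the 6 groups. In the cocaine group of 2 h Socs2 stood above Jak2, at 7.63 and 7.46 FPKM. Socs3 and Cish followed at 0.612 to 1.44 FPKM, with Cish above Socs3 in the saline groups of 2 h and 7 d and below it in the other 4 groups. With 1 pooled value per group it is not known which neighbors in this order differ beyond the spread of libraries. In every group but the cocaine group of 2 h, the SOCS genes past the fold at 2 h were thus among the 4 least abundant of the 9. In the cocaine group of 2 h the gap between Socs3 at 1.44 FPKM and Socs5 at 28.4 FPKM remained wide.

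**Figure D3:**
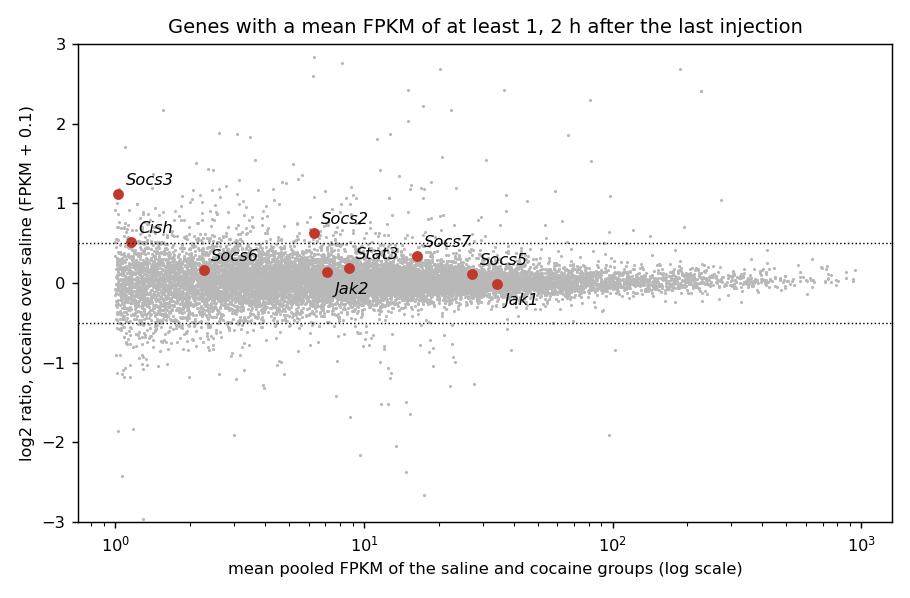
Log2 ratio of cocaine over saline at 2 h (y axis) against the mean pooled FPKM of both groups (x axis, log scale) for the kept genes (grey) and the 9 genes (red, named); 171 of 13355 genes lie outside the axes (a size over 3 or a mean over 1000 FPKM) and are not drawn. Socs3 and Cish lie at the left edge, where grey points spread widely, and Socs2 lies above the dotted line of 0.5 at a mean of 6.27 FPKM.

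At 24 h, 0 of the 8 kept genes were past the fold in either direction, where 2.09% of all kept genes were upwards and 1.9% downwards. The largest log2 ratio among them was 0.33, of Socs2. The median of the 8 was 0.00 beside 0.01 for all kept genes (middle 95% -0.41 to 0.43). Over the 9 genes cocaine was higher in 5 and lower in 4, and it was higher in 53.1% of all kept genes. The astrocyte markers were lower in cocaine at this time for 6 of 6 genes (sums of 467 and 415 FPKM) and the oligodendrocyte markers too (6 of 6, sums of 803 and 669 FPKM), none of them past the fold. This was not particular to these 2 lists. Cocaine was higher in 0 of 5 meningeal fibroblast markers, 1 of 6 microglia markers and 1 of 6 endothelial markers, but in 4 of 6 markers of cortical neurons.

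At 7 d, 0 of the 7 kept genes were past the fold, where 1.88% of all kept genes were upwards and 2.87% downwards. The largest log2 ratio was 0.28, of Socs7, and the lowest was -0.07, of Socs6. The median of the 7 was 0.07 beside -0.01 for all kept genes (middle 95% -0.53 to 0.44), and it was -0.00 after the length trend was subtracted. Cocaine was higher in 6 of the 9 genes, Cish by 0.00, and in 47.7% of all kept genes.

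The saline groups show how far these genes differed without cocaine, across tables that were normalized separately. Of the 7 genes with a mean of at least 1 FPKM in the saline groups of 2 h and 24 h, 0 were past the fold between them, where 5.56% of all genes were in either direction. Between the saline groups of 7 d and 24 h the count was again 0 of 7, where 8.71% of all genes were. Below the filter, Socs3 differed by -0.64 between saline at 2 h and at 24 h, a size past the fold, and by -0.36 between 7 d and 24 h. Both comparisons use the saline group of 24 h. Between the cocaine groups of 2 h and 24 h, 0 of 9 genes were past the fold, where 6.02% of all genes were, and Socs2 was the largest at 0.38. Between the cocaine groups of 7 d and 24 h it was 0 of 8, where 6.95% of all genes were, and Cish was the largest at -0.39.

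Of the 10 remaining genes of the same families (Socs1, Socs4, Jak3, Tyk2 and 6 STAT genes), 8 were kept at each time and 0 of these were past the fold at 2 h, 24 h or 7 d, with medians of -0.02, -0.02 and 0.04. Socs4 had 1.61 and 1.94 FPKM at 2 h, 1.83 and 1.99 FPKM at 24 h, and 1.37 and 1.82 FPKM at 7 d, so that cocaine was higher at each time. Stat5b, whose protein drives Cish and Socs2 after growth hormone, had 4.31 and 4.88 FPKM at 2 h with a log2 ratio of 0.18. Socs1, a strong inhibitor of interferon signaling, was below the filter, with 0.314 and 0.716 FPKM at 2 h, 0.439 and 0.935 FPKM at 24 h, and 0.455 and 0.726 FPKM at 7 d. Its log2 ratios were 0.98, 0.94 and 0.57, each past 0.5 in size, at a mean below 1 FPKM throughout. Jak3 shares a locus with Insl3 in the tables and is uncertain for this reason.

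Upstream of the kinases, receptor genes showed small differences. Of 23 receptor genes, 16 were kept, on 15 loci. At 2 h 13 of the 15 were higher in cocaine with a median of 0.16, and 0 were past the fold. Of all kept genes 56.6% were higher in cocaine at 2 h, and 3.11% were past the fold upwards. The largest was Epor, the erythropoietin receptor, with 2.54 and 3.41 FPKM (0.41). Il6st, the signal chain shared by the interleukin-6 family, had 9.67 and 10.9 FPKM at 2 h, and Cntfr, for ciliary neurotrophic factor, 36.9 and 44.8 FPKM. At 24 h and 7 d the medians were -0.01 and 0.06. The one receptor gene past the fold was Ghr, the growth hormone receptor, which was lower in cocaine at 7 d with 2.93 and 2.03 FPKM (-0.50), after 2.26 and 2.52 FPKM at 2 h and 3.53 and 2.90 FPKM at 24 h. At 7 d 2.87% of all kept genes were past the fold downwards.

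Ligand genes were mostly at or near 0. Of 15, only 2, 3 and 3 were kept at 2 h, 24 h and 7 d, and 0 were past the fold. Ctf1, for cardiotrophin, was the one kept gene (at 24 h and 7 d) alone on its locus, since Epo shares its locus with Gnb2 and Cntf with Zfp91. Ifng, Ifnb1 and Csf3 were listed at 0 in all 6 groups. Il6 was listed at 0 in the saline groups of 2 h and 24 h and in the cocaine group of 7 d. Lif, for leukemia inhibitory factor, had 0.0413 and 0.271 FPKM at 2 h, 0.206 and 0.394 FPKM at 24 h, and 0.757 and 0.152 FPKM at 7 d, too low for a direction to be read.

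Other regulators of the pathway were kept for 16 of 16 genes. The one gene past the fold was Ptpn1, a phosphatase that removes phosphate from JAK2 and from the insulin and leptin receptors, with 8.03 and 11.9 FPKM at 2 h (0.57). It was at 8.00 and 9.58 FPKM at 24 h and at 7.58 and 8.36 FPKM at 7 d. Of all kept genes 3.11% were past the fold upwards at 2 h. The adaptors Cbl, Sh2b2 and Sh2b3 followed at 2 h with 0.38, 0.38 and 0.37, below the fold. The medians of the list were 0.08, -0.02 and 0.02.

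Downstream, known STAT3 target genes and interferon-stimulated genes were read from fixed lists. Of 16 STAT3 targets, 11 were kept at 2 h, with a list median of 0.12. Of these 11, 3 were past the fold upwards, where 3.11% of all kept genes were. The 3 were Junb, an AP-1 gene and itself an immediate-early gene, with 11.4 and 61.6 FPKM (2.43), the repressor gene Bcl6 with 3.59 and 5.96 FPKM (0.72), and Myc with 1.12 and 1.87 FPKM (0.69). The saline value of Myc at 2 h was its lowest saline value, and at 24 h Myc had 2.12 and 1.56 FPKM (-0.42). At 24 h Junb alone was past the fold, with 20.2 and 33.7 FPKM (0.74), and at 7 d none was, with Junb at 12.9 and 17.9 FPKM (0.47). The share of all kept genes past the fold upwards was 2.09% at 24 h and 1.88% at 7 d. The anti-apoptotic gene Mcl1 had 16.2 and 19.2 FPKM and the astrocyte gene Gfap 31.9 and 33.0 FPKM at 2 h, both below the fold. Of 15 interferon-stimulated genes 13 were kept. Isg15, a ubiquitin-like protein gene, was past the fold at 2 h with 2.55 and 3.77 FPKM (0.55) and at 24 h with 2.44 and 4.76 FPKM (0.94). Ifit1 was past it at 24 h with 0.982 and 1.68 FPKM (0.72). Ifit1 passed the filter there only through its cocaine value. Among genes of 0.5 to 2 FPKM, 6.54% were past the fold upwards at that time. None of the 13 interferon-stimulated genes was past the fold at 7 d. The list medians were 0.08, 0.07 and 0.10.

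**Figure D4:**
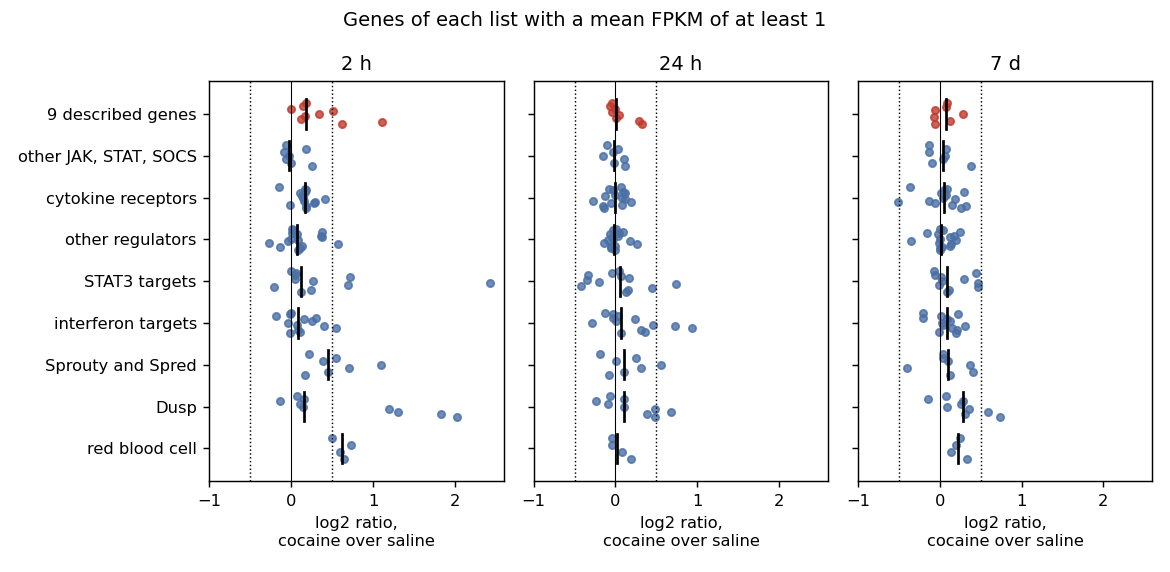
Log2 ratio of cocaine over saline (x axis) for the kept genes of each list (rows) at 2 h, 24 h and 7 d (panels); each point is a gene, the black bar is the list median, and dotted lines mark 0.5 and -0.5. At 2 h the 3 rightmost of the 9 described genes (red) are past 0.5. So are genes of the other regulator, STAT3 target, interferon target, Sprouty and Spred, Dusp and red blood cell lists. At 24 h and 7 d no red point is past 0.5.

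The inhibitors of another cascade, the mitogen-activated protein kinase pathway, are given beside the SOCS genes as values. Of 7 Sprouty and Spred genes 3 were past the fold upwards at 2 h, 1 at 24 h and 0 at 7 d, with medians of 0.45, 0.11 and 0.10. For all kept genes the upward share was 3.11%, 2.09% and 1.88% at these times. Spry4 had the largest ratio, with 1.36 and 3.03 FPKM at 2 h (1.10) and 1.64 and 2.44 FPKM at 24 h (0.55). Of 9 kept Dusp phosphatase genes 4 were past the fold at 2 h (Dusp1 at 2.03, Dusp4 at 1.83, Dusp5 at 1.30 and Dusp6 at 1.20), 1 at 24 h (Dusp5 at 0.68) and 2 at 7 d (Dusp1 at 0.74 and Dusp5 at 0.58). Whether these lists differ from the 9 genes was not tested.

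Genes whose 3 log2 ratios lay nearest to those of Socs2, Socs3 and Cish were found by Euclidean distance among 12926 genes with a mean of at least 1 FPKM at all 3 times. For Socs2 these were Rilpl2 (distance 0.0733, with 0.64, 0.30 and -0.13 at 2 h, 24 h and 7 d), Rbm24 (0.095) and Kcng1 (0.122). For Socs3 they were Calhm2 (0.089, with 1.16, 0.31 and 0.20), the immediate-early gene Egr4 (0.140, with 1.07, 0.30 and 0.40) and the histone demethylase gene Kdm6b (0.173). For Cish they were the histamine receptor gene Hrh1 (0.0781, with 0.47, 0.48 and 0.05), Vwa5b1 (0.0798) and Hmgcll1 (0.134). Each likeness rests on 3 ratios, which is few for so many genes.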

How the data were processed

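RNA of the PFC was sequenced on an Illumina HiSeq2000. Per the labels, the authors' processing notes name CASAVA 1.8.2, Trimmomatic 0.32, TopHat2 2.0.12, Cufflinks 2.2.1 and Cuffdiff with GRCm38 (mm10); the paper's methods name another trimmer and mm9, and the labels and the paper differ in read length and number of libraries. The loci overlapped the genes of the same name on GRCm38 for 99.9% of names at each time, so positions here are on GRCm38. The deposited tables, 3 in all, were made by the authors with Cuffdiff and hold 1 FPKM per group, pooled over its 2 libraries. They also hold the authors' fold change, test statistic, p, q and significance call per locus, which were not used. The group columns were assigned to saline and cocaine by the labelled supplementary tables of the study: 415 of 447, 12 of 13 and 496 of 509 genes at 2 h, 24 h and 7 d matched within 0.1 (log2) that way, and 0 the other way.

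The log2 ratio was that of cocaine over saline after 0.1 FPKM was added. Genes with a mean of at least 1 FPKM were kept, each locus was counted once in the shares over all genes, and a name on several loci took the longest one. With 1 pooled value per group no test was run, and precision is unknown. The trend with transcript length was the median in 20 groups of genes ordered by length. The log2 ratio and the call were first tested on simulated data. The changes planted there were 1 in log2 size, in genes of higher level than Socs3 and Cish. Smaller changes, genes of low level and the length trend were not tested in this way.

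The genes named were the 9 members, the genes of the fixed lists past the fold (up to 5 per list and time) and the 3 genes of nearest pattern to each member past the fold. The other list genes given with values were named after these were seen. Some list genes are not reported here by name. The members and lists were chosen with earlier results of these data known. Alternatives were the added FPKM, the filter, the fold, the choice of locus, centring, the length trend and genes that share their row with no other name. Python 3.11.15, pandas 2.3.3, numpy 2.4.6, scipy 1.17.1 and matplotlib 3.10.9 were used.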

Additional observations from a re-analysis of the deposited data

Results flagged for a closer look

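Socs2 was past the fold at 2 h and had the other sign at 7 d: its log2 ratio of cocaine over saline was 0.62 at 2 h and -0.0629 at 7 d. Socs6, Socs7, Jak2 and Stat3 also had both signs over the 3 times, with no value past the fold, so a sign difference was not particular to Socs2. The difference between the times was not tested, since each group has 1 pooled value, and the ratio at 7 d is within the middle 95% of all kept genes.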

How the results depend on the processing

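No paired analysis was possible because the deposited columns are pooled over the 2 libraries of a group and carry no replicate. For the same reason leaving out each library in turn was not run. Of 288 values under 10 alternatives, 276 stayed within 0.1 (log2) of the value reported or, for counts, within 1.5 times of it, 12 moved, and 0 values past the fold changed direction. Of the 288, 216 were log2 ratios of single genes. The filter, the choice of locus and the limit to rows of 1 name do not enter these ratios, which stayed the same by construction. The share that stayed is therefore no measure of precision. The count of the 9 genes past the fold at 2 h went from 3 to 1 with a mean FPKM of at least 5, which left out Socs3 and Cish, and to 1 with a log2 fold of 1, which left Socs3. It was 2, without Cish, with 1 FPKM added, after centring and after the length trend was subtracted, and 4 with a fold of 0.3, which added Socs7. At 24 h the count went from 0 to 1 with no filter (Cish) and to 1 with a fold of 0.3 (Socs2). Between the saline groups of 2 h and 24 h it went from 0 to 1 with no filter (Socs3). Of single genes, Socs3, Cish and Socs7 moved: with 1 FPKM added, Socs3 was at 0.60, 0.17 and 0.14 at 2 h, 24 h and 7 d, and Cish at 0.29 and 0.28 at 2 h and 24 h; Socs3 was at 1.24 at 2 h with none added, and Socs7 at 0.16 at 7 d without the length trend. The alternative with genes that share their row with no other name was chosen after seeing the data. Depth is unknown, so its limit on the low genes Socs3 and Cish could not be given.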
